A study of Mus musculus with 16 samples.

Results

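Fatty acid oxidation was followed in mouse kidney through 41 genes: those for uptake and activation of fatty acids, the carnitine shuttle, beta-oxidation in mitochondria, beta-oxidation in peroxisomes, and a small set of thioesterases with the uncoupling protein Ucp2. They were taken by gene symbol from a list of the pathway, and each symbol matched 1 row of the 46078 genes in the deposited table. Of the 41, 40 reached 1 TPM in at least 4 libraries and were tested among 15014 genes. The exception was Cpt1b, the muscle form of the carnitine palmitoyltransferase of the outer membrane, which lay between 0.285 and 0.788 TPM in all libraries. TPM are the reads of a gene divided by its length and scaled to a sum of 1000000 per library, so levels of different genes can be set side by side.

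The tissue was kidney of C57BL/6 mice aged 20 weeks, perfused, divided and frozen 72 h after an intraperitoneal injection, with 4 libraries in each of 4 groups. BL_vehicle mice had no preconditioning and received saline. BL_cisplatin mice had no preconditioning and received cisplatin, a platinum drug that injures the proximal tubule. CR_cisplatin mice received cisplatin after 4 weeks of calorie restriction, and HP_cisplatin mice received it after hypoxia of 2, 4 and 8 h on 3 days, at least 1 h before the injection. Neither preconditioning was given with saline, so the response to cisplatin within a preconditioned group was not measured. The labels do not say that the libraries of a group come from separate mice, so the p-values reflect the spread of these libraries alone, which may be technical.

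As background, long fatty acids are bound, activated to acyl-CoA, passed across the mitochondrial membranes as carnitine esters and shortened in repeated cycles of dehydrogenation, hydration, dehydrogenation and thiolysis. Peroxisomes run a similar cycle on very long and branched chains, with oxidases that make hydrogen peroxide in place of the first dehydrogenase. The proximal tubule takes most of its energy from fatty acids, and many genes of both pathways are targets of the lipid-sensing nuclear receptor Ppara, which pairs with Rxra on DNA.

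Recovered reads came to at least 49179614 to 62603189 per library. Markers of the proximal tubule (10 genes, all present) summed to 22928 to 28564 TPM in BL_vehicle, 2009 to 2362 TPM in BL_cisplatin and 23834 to 26474 TPM in CR_cisplatin. In HP_cisplatin the sum was 2531, 5699, 7011 and 26621 TPM in libraries 1 to 4. Most of each sum was 1 gene, Kap; the other 9 markers summed to 312, 2036, 851 and 3388 TPM, with library 2 above library 3. Over these 9 markers BL_vehicle held 3370 to 4100.3 TPM and BL_cisplatin 169.9 to 276 TPM, so the HP_cisplatin libraries ran from near cisplatin alone to within the range of saline. Libraries HP_cisplatin 4 and CR_cisplatin 4 were the closest of all 120 pairs of libraries: over the 40 members the root mean square difference was 0.0477 on the log2 scale, against 0.120 for the next pair, and over all genes tested it was 0.176. No member differed between these 2 libraries by more than 0.11. Whether the 2 libraries share a source or were mixed up was not tested, and it bears on every mean and call of HP_cisplatin and CR_cisplatin. Counts and named calls of the hypoxia comparisons are given with and without HP_cisplatin 4. In bulk tissue, fewer cells of a type and less RNA per cell cannot be told apart.

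Fat cell markers differed between libraries within groups, and several members are abundant in fat. Adipoq, the fat cell hormone adiponectin, was above 5 TPM in 5 libraries: BL_vehicle 3 with 7.31, BL_cisplatin 4 with 20.3, CR_cisplatin 4 with 14.9, HP_cisplatin 2 with 20.1 and HP_cisplatin 4 with 14.2 TPM. In the other 11 libraries it was at most 1.61 TPM. Ucp1, the uncoupling protein of brown fat, reached 107 TPM in BL_cisplatin 4 and 23.8 to 37.4 TPM in CR_cisplatin 4, HP_cisplatin 2 and HP_cisplatin 4. The 7 fat cell markers summed to 0.379 to 31.3 TPM in BL_vehicle, 15.4 to 222 TPM in BL_cisplatin, 1.09 to 101 TPM in CR_cisplatin and 14.1 to 98.5 TPM in HP_cisplatin, and none was at 0 in every library. In BL_cisplatin 1 to 3 the sum was 15.4, 17.3 and 22.8 TPM, with Adipoq at most 1.61 TPM. The 8 markers of striated and cardiac muscle summed to at most 0.803 TPM in any library. Results were recomputed without the 5 libraries with Adipoq.

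**Figure D1:**
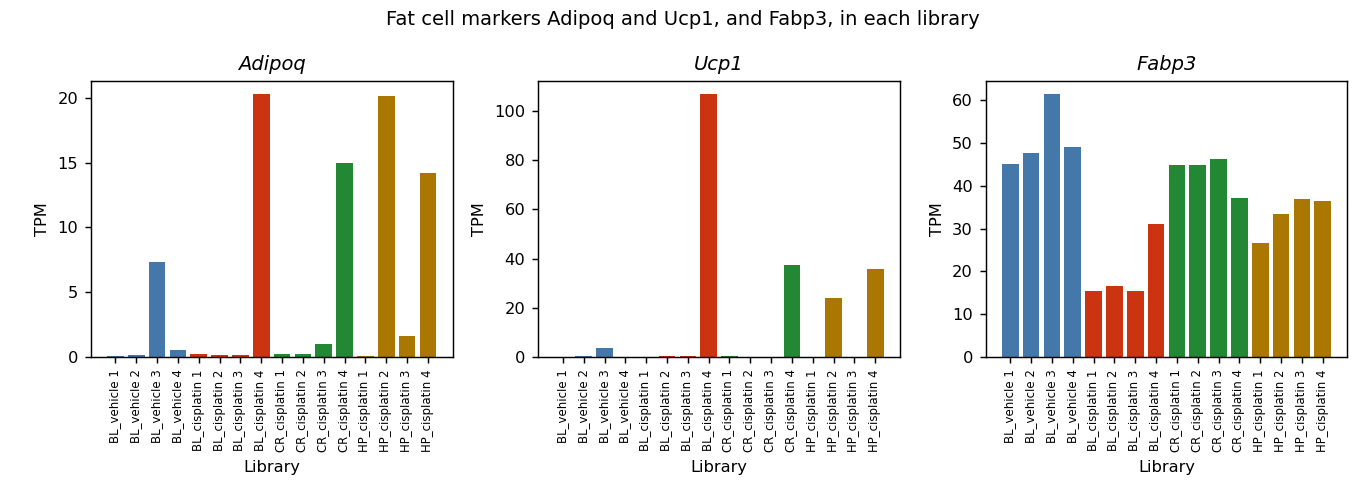
TPM of the fat cell markers Adipoq and Ucp1 and of the fatty acid binding protein gene Fabp3 in each of the 16 libraries, coloured by group. Adipoq was above 5 TPM in 5 libraries. In BL_cisplatin the library with the most Adipoq (20.3 TPM) was also the one with the most Fabp3 (30.9 TPM). The same held in BL_vehicle (library 3, 61.4 TPM of Fabp3). In CR_cisplatin the library with the most Adipoq, library 4, had the least Fabp3 (37.1 TPM). In HP_cisplatin it was library 2, with 33.3 TPM of Fabp3 against 36.9 and 36.4 TPM in libraries 3 and 4.

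Cisplatin without preconditioning lowered 19 and raised 5 of the 40 members against saline. The median member changed by -0.32 on the log2 scale, where the median of all genes tested was 0.08. The falls took the medium and short chain dehydrogenases, the electron transfer flavoprotein and catalase, and the rises were Ucp2, Acot2, Acsl5, Pex11a and Eci1. Among all genes tested 28.8% were lower and 38% higher, so members were called lower more often (47.5%) and higher less often (12.5%) than genes at large; calls are limma adjusted p-values under 0.05. With the title prefix of the libraries as a term, 10 members were lower and 4 higher, beside 9.88% and 12.8% of genes. That fit rests on CR_cisplatin 1 as the only library that shares its prefix with BL_cisplatin. Prefix and group cannot be told apart here. The number higher was 8 without the 5 libraries with Adipoq, beside 38.5% of genes. It was 10 after rescaling without abundant genes, where the share of all genes higher was also larger, at 46.2%. After that rescaling the median member changed by -0.17 and the median gene by 0.25. The 2 groups did not overlap in 62.5% of members, against 63.5% of genes tested. A lack of overlap named below therefore does not set members apart from genes at large. The heat map of all members shows the calls library by library.

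**Figure D2:**
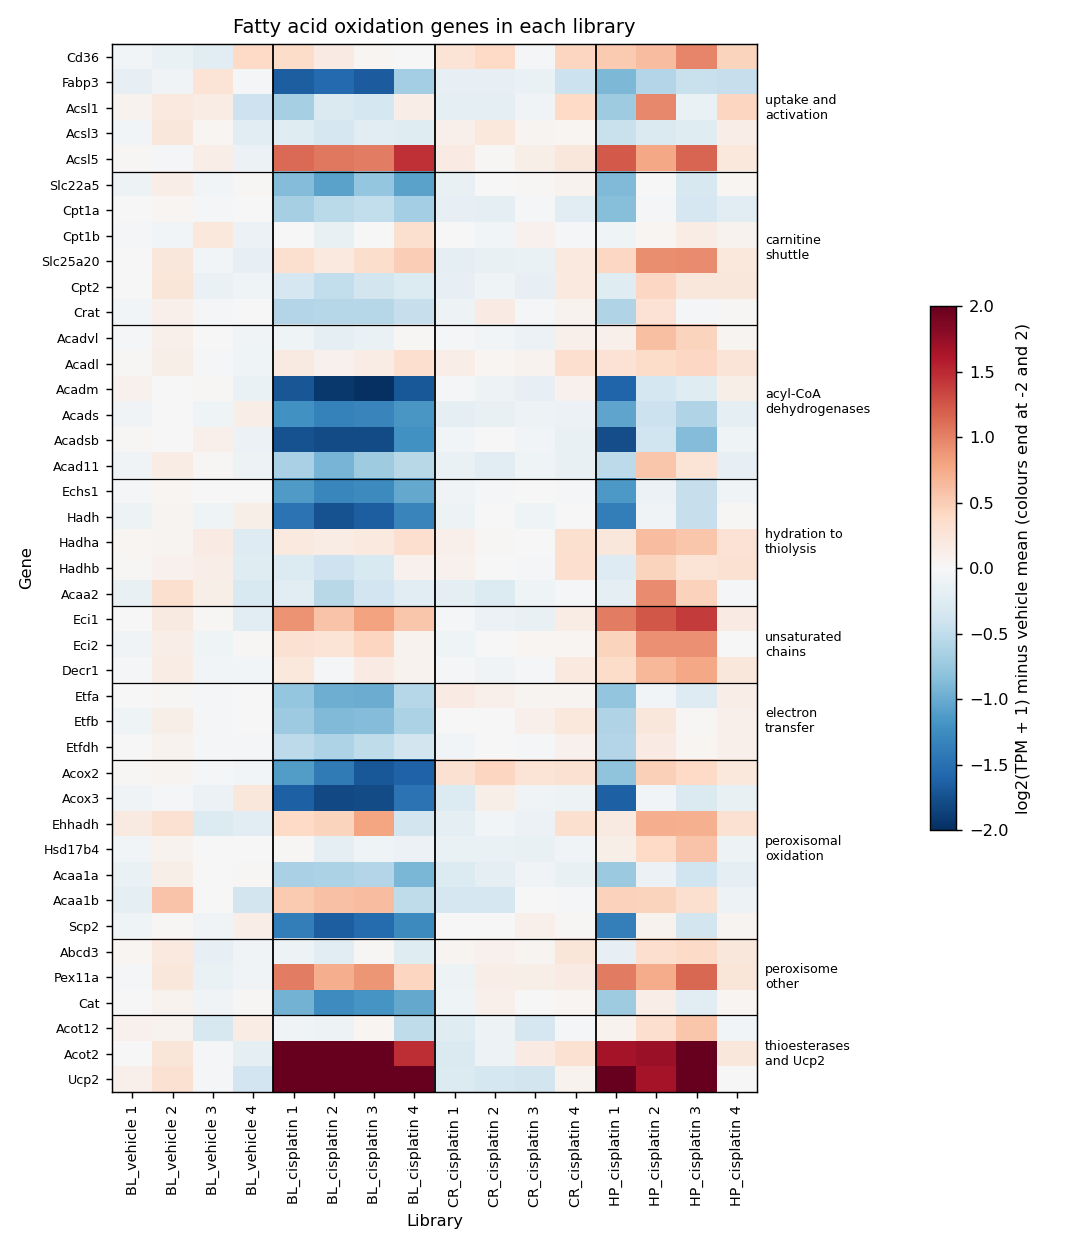
Log2(TPM + 1) of each of the 41 genes minus the mean of the 4 vehicle libraries, with libraries in columns by group and genes in rows by role; colours end at -2 and 2. Acadm, Acadsb, Hadh, Acox3 and Scp2 are low in all 4 BL_cisplatin libraries and in HP_cisplatin 1, Ucp2 and Acot2 are high there, and the 4 CR_cisplatin libraries lie close to vehicle.

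Uptake and activation moved in both directions. Fabp3, which binds fatty acids in the cytosol, measured 45.0, 47.7, 61.4 and 49.0 TPM in BL_vehicle and 15.4, 16.5, 15.3 and 30.9 TPM in BL_cisplatin. The groups did not overlap, and the highest cisplatin library was the one with the most Adipoq and Ucp1. In BL_vehicle too the library with the most Adipoq had the most Fabp3. In CR_cisplatin it had the least, 37.1 against 44.7 to 46.2 TPM, and in HP_cisplatin it did not have the most. The part of fat tissue in these values was not tested. After cisplatin alone the change of Fabp3 was -1.39 ± 0.19 (SE, log2 scale; adjusted p = 5.64e-05). Acsl5, a mitochondrial acyl-CoA synthetase, rose by 1.17 ± 0.17, from 15.7 to 19.0 TPM in vehicle to 36.1 to 48.9 TPM (adjusted p = 8.13e-05). Cd36, the fatty acid transporter of the plasma membrane, overlapped between groups, at 96.9 to 147 TPM in vehicle and 113 to 145 TPM after cisplatin. The synthetases Acsl1 and Acsl3 did not pass the test either.

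The carnitine shuttle was lower in 4 of 5 tested members and higher in none. Slc22a5, the plasma membrane carnitine transporter, measured 84.9, 99.9, 86.9 and 91.8 TPM in vehicle and 49.0, 42.5, 52.9 and 42.7 TPM after cisplatin, a change of -0.95 ± 0.16 (adjusted p = 0.000195). Cpt1a, which forms acylcarnitine at the outer membrane, measured 127, 131, 125 and 128 TPM against 80.1, 87.9, 90.1 and 79.4 TPM (-0.59 ± 0.13, adjusted p = 0.00118). For both genes every cisplatin library lay below every vehicle library. Crat, carnitine acetyltransferase, fell by 0.55 and Cpt2, which releases acyl-CoA inside the mitochondrion, fell by 0.37. The fall of Cpt2 was the weakest call of the group: its adjusted p of 0.0219 became 0.0773 without BL_vehicle 2 and 0.0612 without BL_cisplatin 2. Slc25a20, the carrier of the inner membrane, was not called and lay at 13 to 16.3 TPM against 9.95 to 13.3 TPM.

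Within the mitochondrial cycle, 4 of 6 acyl-CoA dehydrogenases were lower and none higher. Acadm, for medium chains, measured 187, 177, 178 and 161 TPM in vehicle and 52.9, 45.2, 38.3 and 53.8 TPM in BL_cisplatin. This was the largest fall among the members, -1.88 ± 0.26 (adjusted p = 6.19e-05). Acads, for short chains, measured 75.7, 80.4, 75.4 and 88.0 TPM against 33.8, 30.7, 31.4 and 35.1 TPM (-1.26 ± 0.14, adjusted p = 3.57e-05). Acadsb, for short branched chains, fell by 1.63 and Acad11 by 0.71. In none of these 4 genes did the groups overlap. The very long chain enzyme Acadvl stayed within 88.8 to 103 TPM after cisplatin against 96.3 to 109 TPM in vehicle, and the long chain enzyme Acadl lay at 82.9 to 98.7 TPM against 72.8 to 83.9 TPM. Neither Acadvl nor Acadl passed the test (adjusted p = 0.461 and 0.0586).

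Of the later steps of the cycle, 2 of 5 genes were lower and none higher. Hadh, the soluble hydroxyacyl-CoA dehydrogenase for shorter chains, measured 65.1, 72.6, 65.9 and 76.1 TPM in vehicle and 24.5, 20.1, 21.5 and 27.4 TPM in BL_cisplatin (-1.55 ± 0.22, adjusted p = 7.24e-05). Echs1, the enoyl-CoA hydratase of shorter chains, measured 31.1, 33.2, 32.4 and 32.1 TPM against 14.1, 12.4, 12.8 and 15.4 TPM (-1.18 ± 0.17, adjusted p = 7.14e-05). Both were lower in every cisplatin library than in any vehicle library. Hadha and Hadhb, the subunits of the membrane-bound trifunctional protein for long chains, were not called, with Hadha at 25.8 to 29.3 TPM against 19.2 to 26.0 TPM and Hadhb at 20.3 to 29.2 TPM against 22.9 to 30.1 TPM. The thiolase gene Acaa2 was not called and lay at 76.1 to 96.4 TPM against 91.2 to 141 TPM. All 3 genes of electron transfer from the dehydrogenases to the respiratory chain fell: Etfa by 0.83, Etfb by 0.78 and Etfdh by 0.50.

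Among the enzymes for unsaturated chains, none fell. Eci1, a mitochondrial enoyl-CoA isomerase, measured 47.1, 53.3, 47.8 and 40.1 TPM in vehicle and 88.2, 70.2, 82.6 and 69.1 TPM after cisplatin (0.71 ± 0.21, adjusted p = 0.00753). The ranges did not overlap. The isomerase Eci2 and the reductase Decr1 did not pass the test.

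Peroxisomal oxidation was lower in 4 of 7 members and higher in none. The acyl-CoA oxidases Acox2 and Acox3, which act on branched chains and bile acid intermediates, fell by 1.46 and 1.68. Acox2 measured 28.0, 28.7, 27.0 and 26.4 TPM in vehicle and 12.1, 9.68, 7.80 and 8.30 TPM after cisplatin (adjusted p = 7.7e-05). Scp2, a thiolase and sterol carrier, measured 159, 173, 162 and 185 TPM against 64.7, 53.4, 57.7 and 69.7 TPM (-1.46 ± 0.23, adjusted p = 0.000125). For Acox2 and Scp2 the groups lay well apart. Acaa1a, a peroxisomal thiolase, fell by 0.69. Its near-identical copy Acaa1b was not called and spread widely, at 210, 218, 222 and 102 TPM after cisplatin. Reads of these copies may be divided between them in ways the deposited table does not show, so their difference is uncertain. Ehhadh and Hsd17b4, the multifunctional enzymes of the peroxisome, were not called either.

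The peroxisome itself showed 1 fall and 1 rise. Cat, catalase, which breaks down the hydrogen peroxide of the oxidases, measured 323, 341, 310 and 330 TPM in vehicle and 168, 136, 144 and 161 TPM in BL_cisplatin (-1.10 ± 0.15, adjusted p = 5.15e-05). Pex11a, which acts in peroxisome division, measured 13.3, 16.2, 12.4 and 12.9 TPM against 28.9, 23.2, 25.9 and 18.7 TPM (0.76 ± 0.17, adjusted p = 0.00148). Neither gene overlapped between the groups. The membrane transporter Abcd3 did not pass the test.

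The strongest rises of the list were at its edge. Ucp2, a carrier of the inner mitochondrial membrane, measured 6.09, 7.18, 5.45 and 4.05 TPM in vehicle and 64.0, 65.3, 73.6 and 43.2 TPM in BL_cisplatin, a rise of 3.22 ± 0.44 (adjusted p = 5.56e-05). Acot2, the mitochondrial thioesterase that frees fatty acid from acyl-CoA, measured 14.1, 17.0, 13.7 and 12.2 TPM against 60.6, 65.5, 74.8 and 41.3 TPM (1.99 ± 0.31, adjusted p = 0.000108). In both genes BL_cisplatin 4 was the lowest cisplatin library and still above every vehicle library. Acot2 has a near-identical neighbour, Acot1, and the division of reads between them is uncertain. Acot12, a cytosolic thioesterase, was not called.

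**Figure D3:**
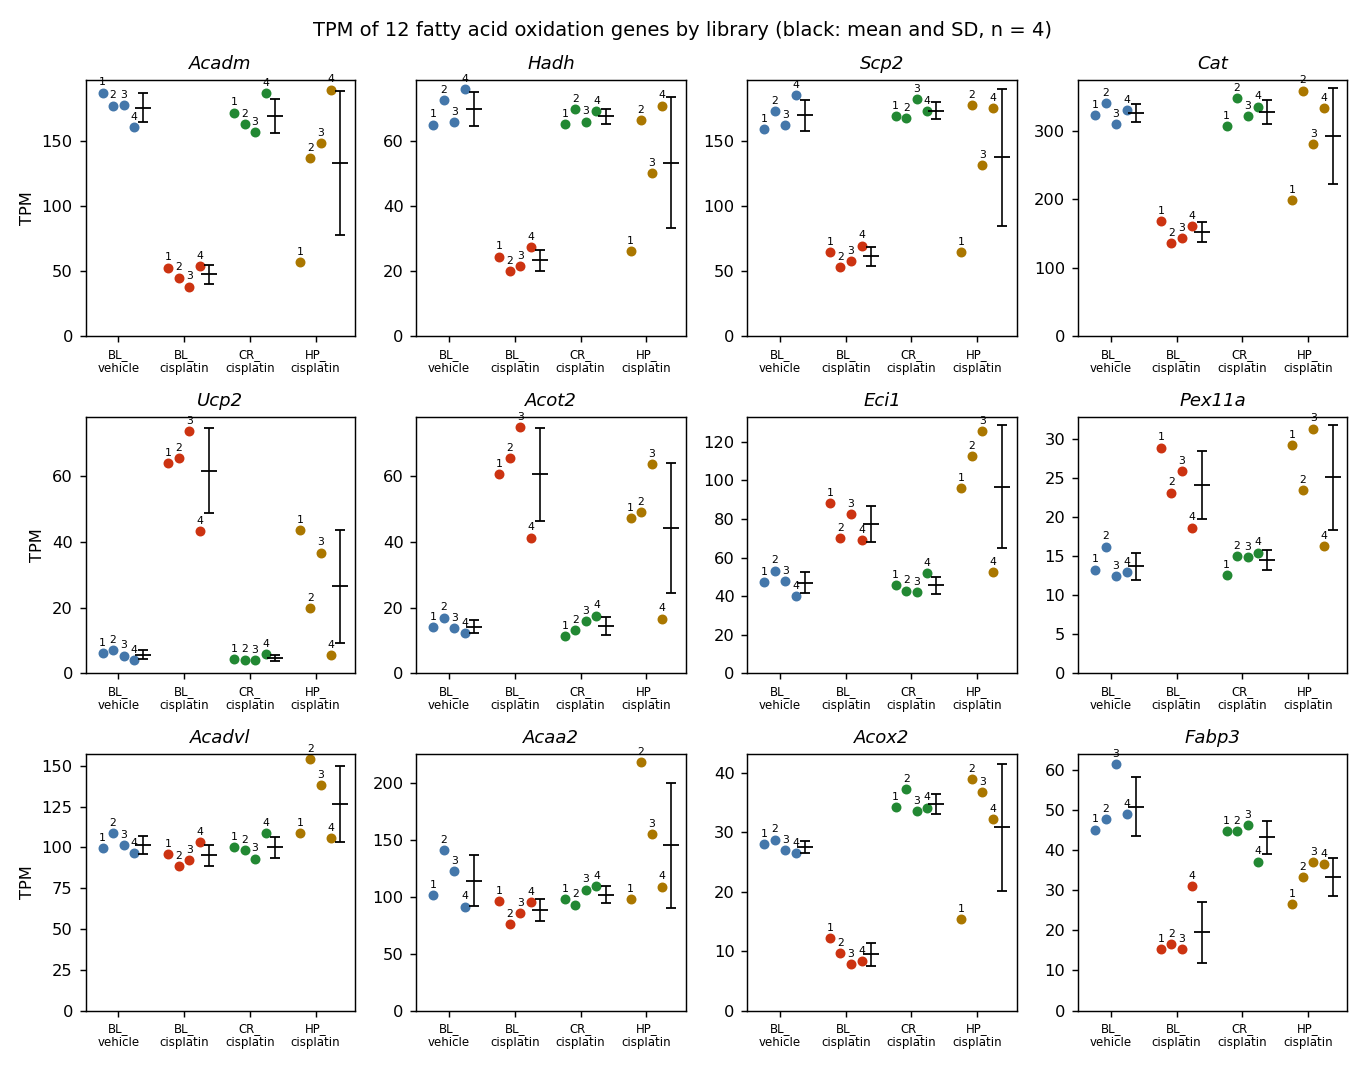
TPM of 12 members in the 4 groups, 1 panel per gene with its own axis from 0; points are libraries with their replicate number, and black marks are the mean and SD (n = 4). Acadm, Hadh, Scp2 and Cat are low in BL_cisplatin and in HP_cisplatin 1, Ucp2 and Acot2 are high in BL_cisplatin and in HP_cisplatin 1 to 3, and Acadvl and Acaa2 are highest in HP_cisplatin 2 and 3.

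Other genes of the pathway, 94 in a list of which 88 were tested, gave 20 rises and 47 falls after cisplatin. These were 22.7% and 53.4% of the 88, beside 38% and 28.8% of all genes tested. All 11 other genes of mitochondrial oxidation were lower, by 0.37 to 2.29, among them the genes for breakdown of branched amino acids and propionate. Other peroxisomal genes gave 22 falls and 3 rises of 34. In contrast, 12 of 14 lipid-induced targets of PPAR receptors rose and none fell, by 0.92 to 4.86. Pdk4, the kinase that shuts pyruvate out of oxidation, rose by 4.59 ± 0.51, from a mean of 5.06 to 140 TPM (adjusted p = 3.81e-05). Ppara was not called, at 29.4 to 40.2 TPM against 27.7 to 32.2 TPM. Ppargc1a, a coactivator of mitochondrial genes, measured 17.7, 16.7, 19.1 and 14.8 TPM in vehicle and 6.49, 8.19, 6.00 and 9.15 TPM after cisplatin (-1.11 ± 0.18, adjusted p = 0.000158). Hnf4a, a nuclear receptor of the proximal tubule, fell by 2.01 from a mean of 188 to 46.3 TPM. Acsl4, a synthetase for arachidonic acid, rose by 2.51, and Acsm5, a synthetase for medium chains, fell by 3.16. The proximal tubule markers, of which 10 of 10 fell (median -3.39), moved with the falls of the list, as did those of the thick ascending limb (6 of 6, median -2.66) and the distal convoluted tubule (3 of 3, median -3.26). Red blood cell markers fell in 4 of 4 (median -2.53), and those of endothelium (-0.65) and collecting duct (-0.82) in 4 of 6 each. Endothelium also had 1 rise, macrophage markers 3 rises and 2 falls of 7, and injured tubule markers 4 rises of 5. Fat cell markers had 1 rise and 0 falls of 6 tested. The part of these cell types in the falls of the list was not tested.

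Promoters were read for a binding element of these receptors, because genes of the pathway are known targets of PPAR. The element, a direct repeat called DR1, is the hexamer AGGTCA repeated in the same direction with 1 base between the copies; up to 2 mismatches over the 12 fixed bases were allowed on both strands. A DR1 with an exact copy also counts as a hexamer. RefSeq windows (build GRCm38.p6) running from 250 bases before to 50 bases after the gene start were held for 36 of the 41 genes. A DR1 was found in 7 of 36 genes (19.4%), against 4.40% of 27025 genes with a window, and the single hexamer in 8 of 36 (22.2%), against 18.1% of genes. These 7 stretches are shown, 5′ to 3′ along the gene's strand, with the 13 bases of the match in capitals and at most 30 bases after the start.
Acot12, chr13:91741387-91741447, plus strand: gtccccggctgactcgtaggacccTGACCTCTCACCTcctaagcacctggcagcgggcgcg
Cat, chr2:103485321-103485381, minus strand: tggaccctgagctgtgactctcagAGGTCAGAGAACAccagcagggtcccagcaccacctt
Echs1, chr7:140116468-140116528, minus strand: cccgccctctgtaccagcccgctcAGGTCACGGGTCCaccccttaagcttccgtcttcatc
Etfa, chr9:55512284-55512344, minus strand: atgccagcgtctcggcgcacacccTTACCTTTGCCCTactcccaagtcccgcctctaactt
Acox2, chr14:8258810-8258854, minus strand: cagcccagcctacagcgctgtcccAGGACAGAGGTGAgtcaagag
Cd36, chr5:17835923-17835983, minus strand: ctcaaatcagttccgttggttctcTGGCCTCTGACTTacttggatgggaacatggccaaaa
Slc25a20, chr9:108662118-108662165, plus strand: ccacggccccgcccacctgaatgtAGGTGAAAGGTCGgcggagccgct
The match of Acot12 has 1 mismatch and the others have 2. A match is a description of these letters and not a site shown to bind PPAR or any other receptor. The letters alone do not assign a match to 1 receptor.

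Set against the calls after cisplatin, the element was in the windows of 4 of 18 fallen genes with a window (Cat, Echs1, Etfa and Acox2), in 0 of 5 risen genes and in 3 of 13 genes that were not called (Acot12, Cd36 and Slc25a20). The 250 bases before the start are shown for the gene with the largest fall and the gene with the largest rise, neither of which held a DR1. In Acadm the capitals mark a single hexamer, read on the opposite strand, and Ucp2 held none.
Acadm, chr3:153944644-153944893, minus strand: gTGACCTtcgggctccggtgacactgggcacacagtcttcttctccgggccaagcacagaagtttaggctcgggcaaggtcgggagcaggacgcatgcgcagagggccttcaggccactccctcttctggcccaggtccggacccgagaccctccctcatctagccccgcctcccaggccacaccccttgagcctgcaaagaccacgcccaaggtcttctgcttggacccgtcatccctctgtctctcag
Ucp2, chr7:100493108-100493357, plus strand: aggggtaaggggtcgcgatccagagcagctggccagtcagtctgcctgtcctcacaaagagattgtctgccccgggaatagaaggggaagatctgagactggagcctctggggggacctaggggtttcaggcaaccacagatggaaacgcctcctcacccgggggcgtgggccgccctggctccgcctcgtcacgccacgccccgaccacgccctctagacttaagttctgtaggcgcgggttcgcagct
The windows of Hadha (chr5:30154931-30155230, minus strand) and Hadhb (chr5:30155003-30155302, plus strand) overlap, since these subunit genes start head to head. Group means of Hadha were 23.2 TPM in BL_vehicle, 27.1 in BL_cisplatin, 25.1 in CR_cisplatin and 31.5 in HP_cisplatin. Those of Hadhb were 27.5, 23.5, 29.6 and 31.9 TPM in the same order. Their means moved in opposite directions after cisplatin alone, where neither gene was called.

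Calorie restriction before cisplatin left 20 of 40 members higher and 6 lower than cisplatin alone. The share of all genes tested was 29.8% higher and 37.4% lower, against 50% and 15% of the members. The median member differed by 0.32 and the median gene by -0.08. Groups did not overlap in 67.5% of members, against 64.8% of genes. This comparison and the one with vehicle both use the BL_cisplatin libraries, so their opposite signs are not independent. With the title prefix as a term 13 members were higher and 4 lower, beside 18.6% and 23.6% of genes. After rescaling 10 members were lower, beside 45.6% of genes, and the median member differed by 0.16 and the median gene by -0.24.

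Each gene of electron transfer and 4 of 6 acyl-CoA dehydrogenases were higher with calorie restriction than after cisplatin alone. Acadm measured 172, 163, 157 and 187 TPM in CR_cisplatin against the 38.3 to 53.8 TPM of BL_cisplatin, a difference of 1.82 ± 0.26 (adjusted p = 7.76e-05). Hadh measured 65.1, 70.0, 66.0 and 69.3 TPM (1.5 ± 0.22, adjusted p = 9.11e-05). In the peroxisome, Acox2 measured 34.1, 37.3, 33.6 and 34.1 TPM, 1.79 ± 0.22 above cisplatin alone, and Cat measured 307, 348, 322 and 336 TPM, 1.11 ± 0.15 above it (adjusted p = 5.83e-05 for each). No CR_cisplatin library overlapped BL_cisplatin in these 4 genes. The 6 lower members were Ucp2 (-3.45), Acot2 (-1.98), Acsl5 (-1.03), Eci1 (-0.75), Pex11a (-0.69) and Slc25a20 (-0.41). Ucp2 measured 4.43, 4.18, 4.13 and 5.89 TPM and Acot2 11.4, 13.1, 15.9 and 17.6 TPM, far below the cisplatin libraries. The call of Slc25a20 (adjusted p = 0.0295) was lost when any of 5 libraries was left out, namely BL_cisplatin 3 or 4 or CR_cisplatin 1, 2 or 3, and that of Cpt2 (0.32, adjusted p = 0.0448) without BL_cisplatin 1, 2 or 3 or CR_cisplatin 2 or 4.

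Other pathway genes gave 50 higher and 22 lower of 88 (56.8% and 25%, beside 29.8% and 37.4% of genes). All 11 other genes of mitochondrial oxidation were higher, for example Acad9, a dehydrogenase that also helps assemble respiratory complex I (1.27 ± 0.17), and 12 of 14 PPAR targets were lower. Hnf4a was higher by 1.89, Slc27a2, a transporter and very long chain synthetase, by 2.06, and Acsm5 by 2.78. Ppara was lower by 0.47, while Ppargc1a was higher by 1.23. The call of Ppara was lost without CR_cisplatin 2 (adjusted p = 0.0525).

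Against saline, CR_cisplatin differed in 0 of 40 members by limma, higher or lower, with 0 at an unadjusted p under 0.05 and 0 by voom on recovered reads. In the limma fit 610 of 15014 genes had an unadjusted p under 0.05, counting both directions. Few genes were called at all, 0.0133% higher and 0.04% lower. When only these 2 groups were fitted, 1 member was called higher, beside 0.326% of genes. In that fit 2 members were higher and 5 lower at an unadjusted p under 0.05, beside 2091 of 15014 genes in either direction. In 5 of 40 members (12.5%) the groups did not overlap, against 9.16% of genes. Etfa lay at 74.7 to 80.6 TPM after restriction and cisplatin against 70.5 to 73.4 TPM in vehicle, and Acox2 at 33.6 to 37.3 against 26.4 to 28.7 TPM. The other 3 were lower with restriction: Cpt1a at 110 to 124 against 125 to 131 TPM, Acads at 69.1 to 73.9 against 75.4 to 88.0 TPM, and Hsd17b4 at 59.8 to 62.7 against 63.3 to 69.7 TPM. For Etfa, Acox2, Cpt1a and Acads these differences are smaller than those after cisplatin alone. For Hsd17b4 they are not, with means of 66.0 TPM in vehicle, 61.8 in BL_cisplatin and 60.7 in CR_cisplatin. None of the 5 passed the test with all 16 libraries in the fit. No other pathway gene of 88 was called.

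By compartment, the mean of 17 tested mitochondrial oxidation genes lay at -0.51, -0.68, -0.61 and -0.43 relative to the vehicle mean in BL_cisplatin and between -0.05 and 0.08 in CR_cisplatin. The 10 peroxisomal genes lay at -0.38, -0.54, -0.46 and -0.71 in BL_cisplatin and between -0.11 and 0.07 in CR_cisplatin. All 4 cisplatin libraries were below vehicle in both compartments, and BL_cisplatin 4 was the least lowered in mitochondrial and the most lowered in peroxisomal genes. That library held the most Adipoq; the part of fat tissue in this was not tested. The 5 carnitine shuttle genes lay between -0.50 and -0.37 in BL_cisplatin, and the thioesterases and Ucp2 between 1.24 and 1.95.

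**Figure D4:**
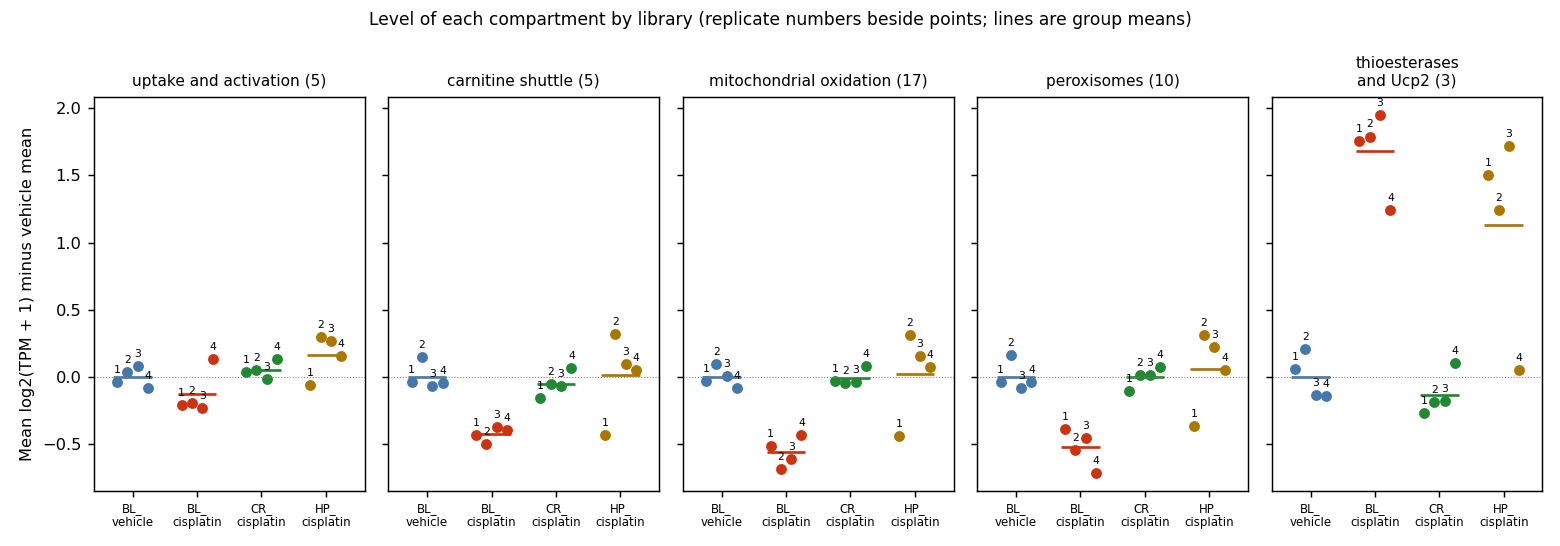
Mean of log2(TPM + 1) minus the vehicle mean over the tested genes of 5 compartments (gene number in brackets), 1 point per library with its replicate number; lines are group means. Means of mitochondrial and peroxisomal genes are below vehicle in all 4 BL_cisplatin libraries and in HP_cisplatin 1 and close to vehicle in CR_cisplatin. In HP_cisplatin 2 and 3 they are above it, at 0.16 to 0.32. The mitochondrial roles differ there: 0.94 and 1.03 for unsaturated chains, and 0.36 and 0.07 for hydration to thiolysis. Acyl-CoA dehydrogenases are at 0.05 and -0.09 and electron transfer at 0.11 and -0.07.

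Hypoxia before cisplatin left 25 of 40 members higher and 1 lower than cisplatin alone, where 16.4% of genes were higher and 13.1% lower. This was 62.5% and 2.5% of the members, and the median member differed by 0.43 against -0.02 for all genes. Groups did not overlap in 27.5% of members, against 15.5% of genes. Without HP_cisplatin 4 there were 23 members higher and 1 lower, beside 12.3% and 7.02% of genes. The calls rest on the shared estimate of spread: with only these 2 groups in the fit, 0 members and 0 genes were called in either direction. In that fit 23 members were higher and 1 lower at an unadjusted p under 0.05, beside 4273 of 15014 genes in either direction. Voom on recovered reads called 22 and 1, beside 14.2% and 17.6% of genes. With the title prefix as a term the counts were 0 and 0, for members and for all genes. There 9 members were higher and 0 lower at an unadjusted p under 0.05, beside 1564 of 15014 genes in either direction. Leaving out HP_cisplatin 2, BL_cisplatin 2 or BL_cisplatin 3 gave 14, 14 and 15 members higher and 0 lower. Genes higher were then 8.8%, 9.42% and 9.37%, and genes lower 6.02%, 8.08% and 6.25%. Leaving out BL_cisplatin 1 gave 19 and 0, beside 11.7% and 7.82% of genes. Leaving out HP_cisplatin 1 gave 28 and 2, beside 24.5% and 23.2% of genes. Without the 5 libraries with Adipoq, which leaves HP_cisplatin 1 and 3 against 3 libraries, 2 members were higher and 1 lower. Of all genes, 2.6% were then higher and 0.999% lower. At an unadjusted p under 0.05, 25 members were higher and 1 lower in that fit, beside 4077 of 14611 genes in either direction.

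The libraries of this group differed more among themselves than the calls show. Acadm measured 57.1, 137, 149 and 190 TPM in HP_cisplatin, all above the 38.3 to 53.8 TPM of BL_cisplatin, with library 1 just outside that range (1.35 ± 0.26, adjusted p = 0.00564; 1.14 without HP_cisplatin 4, adjusted p = 0.0117). Cat measured 200, 359, 281 and 333 TPM against 136 to 168 TPM (0.91 ± 0.15, adjusted p = 0.00379; 0.84 without HP_cisplatin 4). Acox2 measured 15.4, 38.9, 36.7 and 32.2 TPM against 7.80 to 12.1 TPM (1.54 ± 0.22, adjusted p = 0.00298; 1.49 without HP_cisplatin 4). None of these 3 genes overlapped between the groups. Hadh measured 26.2, 66.4, 50.2 and 71.0 TPM and Scp2 65.0, 178, 132 and 176 TPM, and in both library 1 fell within the cisplatin range. Hadh was higher by 1.07 and Scp2 by 1.05, and by 0.91 and 0.90 without HP_cisplatin 4.

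Several members that were not called after cisplatin alone were higher with hypoxia. Acaa2 measured 98.0, 218, 155 and 109 TPM against 76.1 to 96.4 TPM in BL_cisplatin (0.64 ± 0.21, adjusted p = 0.0337; 0.75 without HP_cisplatin 4). Acadvl measured 109, 154, 138 and 106 TPM against 88.8 to 103 TPM (0.40 ± 0.11, adjusted p = 0.0196; 0.48 without HP_cisplatin 4). Both were above cisplatin alone in all 4 libraries, with libraries 2 and 3 highest. Decr1 was higher by 0.40 (0.50 without HP_cisplatin 4), Cd36 by 0.49 (0.56), Hsd17b4 by 0.35 (0.46), Hadhb by 0.42 (0.38) and Abcd3 by 0.33 (0.33). The calls of Hadhb and Abcd3 were lost without HP_cisplatin 4 (adjusted p = 0.111 and 0.0832), as were those of Acadsb (0.0767), Crat (0.0533), Etfdh (0.0582) and Acaa1a (0.129). Ucp2 was the 1 lower member, at 43.5, 20.0, 36.7 and 5.54 TPM (-1.49 ± 0.44, adjusted p = 0.0233), and the difference was -0.91 without HP_cisplatin 4. Its highest library overlapped the lowest of cisplatin alone. The other 4 genes that rose after cisplatin alone were not called in this comparison.

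Against saline, HP_cisplatin was higher in 11 members and lower in 4, beside 19.2% and 10.1% of genes tested. In this fit shares of 27.5% and 10% were near those of genes at large. Groups did not overlap in 22.5% of members, against 15.2% of genes. Without HP_cisplatin 4 the counts were 13 and 11, beside 33.6% and 17.9% of genes. Without HP_cisplatin 3 they were 5 and 0, beside 3.09% and 1.55%. With only these 2 groups in the fit they were 0 and 0, beside 0.0466% and 0.0266%. In that fit 12 members were higher and 4 lower at an unadjusted p under 0.05, beside 4559 of 15014 genes in either direction. The count of lower members was 1 without BL_vehicle 2, 3 or 4 or without HP_cisplatin 1, beside 4.15% to 5.82% of genes. It was 14 without the 5 libraries with Adipoq, beside 21.9% of genes. The 11 higher members included Ucp2 (1.73; 2.31 without HP_cisplatin 4), Acot2 (1.43; 1.83), Eci1 (0.96; 1.22), Acsl5 (0.84; 1.05), Pex11a (0.79; 0.98), Cd36 (0.65; 0.71), Slc25a20 (0.62; 0.76) and Eci2 (0.57; 0.76). The remaining 3 were Decr1 (0.51; 0.60), Hadha (0.42; 0.46) and Acadl (0.33; 0.35). The list includes all 3 genes for unsaturated chains, of which only Decr1 did not overlap saline; in HP_cisplatin 4 Eci1 measured 52.4 and Eci2 39.0 TPM, within the vehicle ranges. The 4 lower members were Acadsb (-0.78; -1.01), Fabp3 (-0.60; -0.64), Acads (-0.57; -0.70) and Acaa1a (-0.36; -0.42).

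Other pathway genes gave 41 higher and 4 lower of 88 against cisplatin alone (46.6% and 4.55%, beside 16.4% and 13.1% of genes). They gave 19 higher and 20 lower against saline (21.6% and 22.7%, beside 19.2% and 10.1% of genes). Without HP_cisplatin 4 the counts against cisplatin alone were 33 and 0 (37.5% and 0%, beside 12.3% and 7.02% of genes). Those against saline were then 29 and 32 (33.0% and 36.4%, beside 33.6% and 17.9% of genes). With only the compared groups in the fit limma called 0 of the 88 in either comparison, where it called 0 and 11 of 15014 genes and 4273 and 4559 genes had an unadjusted p under 0.05. All 11 other genes of mitochondrial oxidation were above cisplatin alone, and 10 of them without HP_cisplatin 4. Values without that library follow in brackets. Acad10, a dehydrogenase, was higher by 0.89 (0.82) and Hsd17b10, a hydroxyacyl-CoA dehydrogenase, by 0.52 (0.58), with Hnf4a at 1.22 (1.03) and Slc27a2 at 1.42 (1.22). Against saline, 11 of 14 PPAR targets were higher and none lower, and 12 of 14 without HP_cisplatin 4. The 4 PPAR targets lower than in cisplatin alone were 0 without it. Against saline, Pdk4 was higher by 3.04 (3.54), Plin4, a lipid droplet protein, by 2.20 (2.52) and Acsl4 by 1.66 (2.08), while Acsm1 differed by -1.58 (-1.97). Ppargc1a measured 7.16, 12.9, 10.04 and 16.2 TPM, above cisplatin alone by 0.53 and below saline by 0.57; the first of these was lost without HP_cisplatin 4 (adjusted p = 0.126). Ppara measured 44.8, 45.7, 49.0 and 28.9 TPM and was not called against cisplatin alone.

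In HP_cisplatin 2 and 3 the place between saline and cisplatin alone differed between fallen and risen members. On a scale where 0 is the vehicle mean and 1 the BL_cisplatin mean, the median of the 19 fallen members was 0.94, 0.03, 0.25 and -0.03 in HP_cisplatin 1 to 4, and that of the 5 risen members was 1.05, 0.87, 1.05 and 0.19. Single genes spread widely around these medians: in HP_cisplatin 2 the risen Ucp2 lay at 0.52 and Eci1 at 1.76, and in HP_cisplatin 3 the fallen Cpt1a lay at 0.56 and Cpt2 at -0.63. Over all genes called after cisplatin the medians of libraries 2 and 3 were 0.23 and 0.50 for the 4322 fallen genes and 0.50 and 0.73 for the 5710 risen genes, so a gap of the same sign was present at large. The 12 risen PPAR targets lay at 0.80 and 0.99, the 47 other fallen pathway genes at 0.16 and 0.39. The genes were chosen by the vehicle and BL_cisplatin libraries that set this scale, and the medians are a description with no test. Library 1 lay near 1 and library 4 near 0 for both sets.

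**Figure D5:**
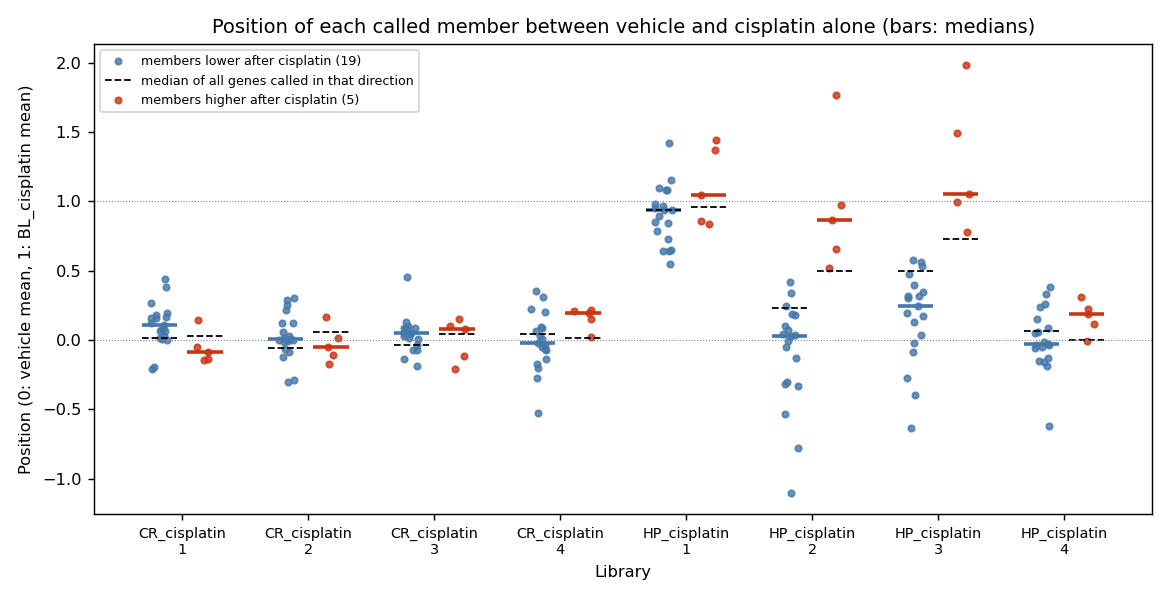
Position of each called member in the preconditioned libraries, where 0 is the vehicle mean and 1 the BL_cisplatin mean of log2(TPM + 1); blue points are the 19 members lower after cisplatin, red points the 5 higher, coloured bars their medians and dashed bars the medians of all genes called in that direction. In HP_cisplatin 2 and 3 the fallen members have medians of 0.03 and 0.25 and the risen members 0.87 and 1.05.

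Libraries HP_cisplatin 2 and 3 also held members above every library of saline and of cisplatin alone. This was so for 21 of 40 members in HP_cisplatin 2 (52.5%, against 14.2% of genes tested) and 16 in HP_cisplatin 3 (40.0% against 12.5%), for 7 in HP_cisplatin 1 (17.5% against 11.6%) and for 9 in HP_cisplatin 4 (22.5% against 8.34%). In CR_cisplatin 1 to 4 it was so for 2, 5, 2 and 8 members, or 5%, 12.5%, 5% and 20%, against 9.08%, 14.8%, 12% and 9.5% of genes. For 15 members (37.5%, against 7.07% of genes) it held in both HP_cisplatin 2 and 3, and 9 of these were among the 17 genes of mitochondrial oxidation. They were Acadvl, Acadl, Acad11, Hadha, Hadhb, Acaa2, Eci1, Eci2 and Decr1, the others being Cd36, Slc25a20, Acox2, Hsd17b4, Abcd3 and Acot12. Hadha, which was not called after cisplatin alone, measured 35.8 and 34.2 TPM against at most 29.3 TPM in the 8 libraries of saline and cisplatin alone, and Eci2 73.3 and 73.9 TPM against at most 52.2 TPM. HP_cisplatin 2 held 20.1 TPM of Adipoq and HP_cisplatin 3 1.61 TPM, with fat cell markers summing to 98.5 and 20.5 TPM; their part in these counts was not tested. Injured tubule markers (5 genes) summed to 109 and 677 TPM in these libraries, 1236 TPM in HP_cisplatin 1, 2.51 TPM in HP_cisplatin 4 and 1026 to 1113 TPM in BL_cisplatin.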

How the data were processed

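Total RNA of kidney was depleted of ribosomal RNA and sequenced, per the labels. The authors deposited 1 table of TPM per gene and library; its unit was read from the sum of 1000000 in each library. Aligner STAR 2.5, the counter featureCounts of Subread 1.5 and the builds mm10 and GRCm38 are given per the submitters' processing notes. Groups follow the injection and preconditioning labels, and replicates were numbered in the order of the samples. The 41 genes and all gene lists were chosen with earlier results of these data known. Every member may be named; of the other pathway genes Ppara, Ppargc1a and up to 4 with the smallest adjusted p per comparison were named, and 1 gene that the rule names is not reported here.

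Testing was on genes that reached 1 TPM in 4 libraries or more, using log2(TPM + 1) and limma 3.58.1 (R 4.3.3), all 16 libraries in 1 fit, group as the only term, trended and robust prior variance, 2-sided, Benjamini-Hochberg adjustment over 15014 genes, threshold 0.05. Fold changes on this scale understate those of low genes. The test was checked on values simulated for CR_cisplatin against BL_vehicle only, with the same spread of a gene in every group. There 63.0% of 1.5-fold changes were recovered, and 6.02% of calls were false. The check does not cover the hypoxia comparisons, since HP_cisplatin libraries spread more widely than those of the other groups. Since TPM are whole reads over length, reads were recovered: 24571 of 32198 genes (76.3%) came out whole within 0.0001 reads with the annotated length (GENCODE M21), and others were given the smallest length that did so, so totals are lower bounds. They served a voom fit added after seeing the data, as was the fit without libraries with Adipoq above 5 TPM.

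The title prefix of the libraries is K002000053 for BL_cisplatin 1 to 4 and CR_cisplatin 1 and K002000059 for the rest, so prefix and group cannot be told apart for BL_cisplatin against BL_vehicle or HP_cisplatin. TPM were also rescaled without 50 genes, namely mitochondrially encoded ones, those of red blood cells and the 10 of highest mean. Nuclear protein-coding genes held 25.4 to 25.7% of TPM in BL_vehicle and 20.5 to 22.7% in BL_cisplatin. After rescaling, the median over all genes tested went from 0.08 to 0.25 (BL_cisplatin against BL_vehicle) and from -0.08 to -0.24 (CR_cisplatin against BL_cisplatin). It went from -0.02 to -0.14 for HP_cisplatin against BL_cisplatin. In the same order the median member went from -0.32 to -0.17, from 0.32 to 0.16 and from 0.43 to 0.31. The share of calls that were higher went from 56.9 to 68.7%, 44.4 to 32.0% and 55.5 to 30.0%.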

Additional observations from a re-analysis of the deposited data

Results flagged for a closer look

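In 12 of 164 sets of 4 libraries (each of the 41 genes in each group), 1 library stood apart from the other 3 by more than Dixon's 95% critical value; chance gives about 1 in 20. Of these, 4 were BL_cisplatin 4: Fabp3 at 30.9 TPM against 15.3 to 16.5, Crat at 23.3 against 21.2 to 21.4, Acadsb at 12.3 against 7.90 to 8.16, and Acaa1b at 102 against 210 to 222 TPM. A further 5 were CR_cisplatin 4: Fabp3 at 37.1 TPM against 44.7 to 46.2, Acsl1 at 33.0 against 21.4 to 23.3, Slc25a20 at 13.04 against 9.74 to 10.2, Abcd3 at 69.4 against 60.5 to 61.9, and Ucp2 at 5.89 against 4.13 to 4.43 TPM. These 2 libraries held 20.3 and 14.9 TPM of Adipoq, and the part of fat tissue in these values was not tested. BL_vehicle 2 stood apart in Decr1 at 48.9 TPM against 42.4 to 42.9 and in Etfdh at 22.2 against 20.5 to 20.8 TPM, and CR_cisplatin 2 in Acox2 at 37.3 against 33.6 to 34.1 TPM.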

How the results depend on the processing

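No paired analysis was possible because the labels number no replicates. No call of a named gene changed sign under any alternative run. With the title prefix as a term, 11 of 30 such calls after cisplatin, 10 of 33 for CR_cisplatin against BL_cisplatin, 31 of 31 for HP_cisplatin against BL_cisplatin and 1 of 20 for HP_cisplatin against BL_vehicle were lost. With only the compared groups fitted, 31 of 31 and 20 of 20 of the hypoxia calls were lost, and without the libraries with Adipoq 27 of 31 and 0 of 20. After cisplatin, members higher numbered 8 with only the compared groups fitted, 10 after rescaling without abundant genes, 9 by voom and 8 without the libraries with Adipoq. Genes higher were then 39%, 46.2%, 46.2% and 38.5%. Members lower numbered 10 with the title prefix as a term, beside 9.88% of genes. For CR_cisplatin against BL_cisplatin, 13 members were higher with the prefix (18.6% of genes) and 10 lower after rescaling (45.6% of genes). For HP_cisplatin against BL_cisplatin, members higher numbered 0 with only the compared groups, 0 with the prefix, 2 without the libraries with Adipoq, and 14 to 28 with 1 library left out. Genes higher were then 0%, 0%, 2.6% and 8.8% to 24.5%. Members lower numbered 0 and 0 under the first pair of these and 0 to 2 with 1 library left out. Genes lower were then 0%, 0% and 6.02% to 23.2%. For CR_cisplatin against BL_vehicle, 1 member was higher with only the compared groups, beside 0.326% of genes. For HP_cisplatin against BL_vehicle, members higher numbered 0 with only the compared groups and 5 to 14 with 1 library left out. Genes higher were then 0.0466% and 3.09% to 33.6%. Members lower numbered 1 with no filter, 0 with only the compared groups, 14 without the libraries with Adipoq and 0 to 11 with 1 library left out. Genes lower were then 3.21%, 0.0266%, 21.9% and 1.55% to 17.9%. After rescaling, the mean of BL_cisplatin was -0.28 for the carnitine shuttle and -0.42 for mitochondrial oxidation. The cause was not tested. Of the members, Cpt1b had the fewest recovered reads, 36 to 108 per library, and was not tested.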

Other observations

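The most abundant members in saline-treated kidney, by TPM, were Cat, Etfb, Acadm, Scp2 and Ehhadh, whose lowest vehicle libraries measured 310, 170, 161, 159 and 159 TPM. Acsl3, at 3.11 to 4.56 TPM, had the lowest vehicle level of the 40 tested.

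The 14 tested lipid-induced PPAR targets, as a mean relative to vehicle on the log2 scale, lay at 1.97 to 2.27 in BL_cisplatin. In HP_cisplatin 1 to 4 they lay at 2.05, 2.12, 2.36 and 0.57. In CR_cisplatin they lay between -0.21 and 0.58, with CR_cisplatin 4 highest. The list holds genes that fat cells also express, and CR_cisplatin 4 and HP_cisplatin 4 were among the libraries with Adipoq; the part of fat tissue was not tested.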
